A study of Mus musculus with 9 samples.

Results

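The genes described here are 10 genes of megakaryocyte granules and platelet signaling: Pf4, Ppbp, Cd226, Rap1b, Plek, Clec1b, Tubb1, Mmrn1, Selp and Rab27b. They were chosen by symbol with earlier results of these data known, as were the lists read further on. The shares of all clusters given beside their counts are therefore a description and not a test. All 10 were found, each as 1 transcript cluster (the probes that a whole-transcript array pools for a gene), among 21072 clusters and 18797 symbols. Expression was measured on 9 arrays of mouse cells that carried 1 of 3 retroviral constructs, with 3 arrays per group. The R396Q group received GATA2 with that amino acid change, the wild type group received unchanged GATA2, and the empty vector group received MIE, a vector with EGFP alone. All 9 samples came from 8-week-old female C57BL/6 mice given 5-fluorouracil, a drug that kills dividing blood cells, at 150 mg/kg 6 days before marrow was taken. Marrow cells enriched as Lin-Sca+Kit+, the gate of blood stem and early progenitor cells, were infected on consecutive days, and GFP-positive cells were sorted at 72 h of culture. The labels call the tissue blood and the cells HSC (hematopoietic stem cells), while the protocol describes cultured marrow cells. The labels do not give the species of the GATA2 cDNA, the promoter that drove it, or whether the 3 samples of a group were separate mice or cultures, so p-values measure only the spread between these samples.

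Megakaryocytes are the large marrow cells that shed platelets. They load alpha granules with chemokines and adhesion proteins and dense granules with small messengers such as serotonin and ADP, and platelets release both when receptors at their surface signal through small GTPases. GATA2 is a zinc finger transcription factor that binds GATA letters in DNA, keeps stem and progenitor cells going, and takes part in early megakaryocyte and mast cell development. The R396Q change lies in its C-terminal zinc finger, the part that binds DNA.

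With wild type GATA2, 7 of the 10 genes were higher than with empty vector: Pf4, Ppbp, Cd226, Mmrn1, Plek, Rab27b and Rap1b. None of the 10 was lower, also at an unadjusted p under 0.05, which 11.7% of all clusters passed as lower, and Tubb1, Clec1b and Selp did not pass the test. With R396Q, 1 of the 10, Rap1b, was higher than with empty vector, and 5 were lower than with wild type GATA2: Ppbp, Cd226, Pf4, Mmrn1 and Rap1b. The test was limma's moderated linear model over all 9 arrays, with Benjamini-Hochberg adjustment over all 21072 clusters and 0.05 as the threshold. Among all clusters the same rule called 4.64% higher and 4.35% lower with wild type GATA2 than with empty vector. It called 0.66% higher and 0.569% lower with R396Q than with empty vector, and 2.67% higher and 3.08% lower with R396Q than with wild type GATA2. The 3 comparisons share their groups, so they are not independent of one another.

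Promoter sequence is shown for the chemokine genes Pf4 and Ppbp, which lie side by side on chromosome 5 and both rose with wild type GATA2. The sequences are the 250 bases before each RefSeq gene start in GRCm38.p6, plus strand, 5′ to 3′. Capitals mark ETS letters (AGGAAG or CGGAAG, either strand), the core that ETS factors such as Fli1 bind, and would mark GATA letters, which are AGATAA and also its variants TGATAA, then also AGATAG, and lastly TGATAG, on either strand.
Pf4 chr5:90772185-90772434: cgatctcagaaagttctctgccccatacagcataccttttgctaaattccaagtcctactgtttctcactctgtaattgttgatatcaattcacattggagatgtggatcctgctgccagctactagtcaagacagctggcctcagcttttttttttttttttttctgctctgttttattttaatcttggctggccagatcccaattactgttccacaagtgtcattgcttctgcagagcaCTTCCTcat
Ppbp chr5:90768268-90768517: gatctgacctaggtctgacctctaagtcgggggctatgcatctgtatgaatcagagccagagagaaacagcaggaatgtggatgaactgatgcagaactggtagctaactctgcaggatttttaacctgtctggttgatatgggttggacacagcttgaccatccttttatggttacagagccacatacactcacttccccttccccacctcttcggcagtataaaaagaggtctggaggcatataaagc
The Pf4 stretch held 1 ETS match, 9 bases before the start, and the Ppbp stretch held neither kind.

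A wider window, 250 bases before to 50 after the start, was searched on both strands for 8 of the 10 genes. Cd226 and Rab27b were not searched. GATA letters stood in 3 of the 8 windows, those of Pf4, Clec1b and Mmrn1, and in 29.8% of all 32851 RefSeq windows. The 4 matches are shown with their surroundings, plus strand, with the GATA letters in capitals.
Pf4 chr5:90772455-90772484: actgggcaggcagtgaAGATAAaacgtgct
Clec1b chr6:129397096-129397125: ggataatataaaTGATAAgattagacatta
Clec1b chr6:129397317-129397346: ccttcactcagagctgaAGATAAgagagca
Mmrn1 chr6:60944271-60944300: ggcgtttcctgcTGATAAttgtccatgttt
The Pf4 match begins 37 bases after the start, the Clec1b matches 189 bases before and 38 after it, and the Mmrn1 match 34 bases before it. ETS letters stood in 4 of the 8 windows, those of Pf4, Rap1b, Tubb1 and Selp, and in 46.5% of all windows. RUNX letters (TGTGGT) and NF-E2 letters (TGACTCA) stood in 0 of the 8, against 16.8% and 5.2% of all windows. GATA and ETS letters may share a base. Pf4 and Mmrn1, with GATA letters, rose with wild type GATA2, and so did Ppbp, Rap1b and Plek without them, while Clec1b with 2 matches did not pass the test. A match is only a description of the letters in the window.

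The transduced gene was read first. The Gata2 cluster had log2 signals of 10.65, 10.72 and 10.53 in R396Q cells, 11.50, 11.24 and 10.94 in wild type cells and 9.87, 9.67 and 9.65 in empty vector cells. The 3 groups did not overlap. Gata2 was 1.87-fold higher in R396Q than in empty vector cells (limma adjusted p = 0.0394) and 2.81-fold higher in wild type than in empty vector cells (adjusted p = 0.0016). R396Q differed from wild type by -0.59 on the log2 scale, which missed the threshold (limma adjusted p = 0.0633) and was called with the replicate number as a block (adjusted p = 0.0222). Whether these probes read the transduced cDNA as well as the cell's own Gata2 was not tested.

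**Figure D1:**
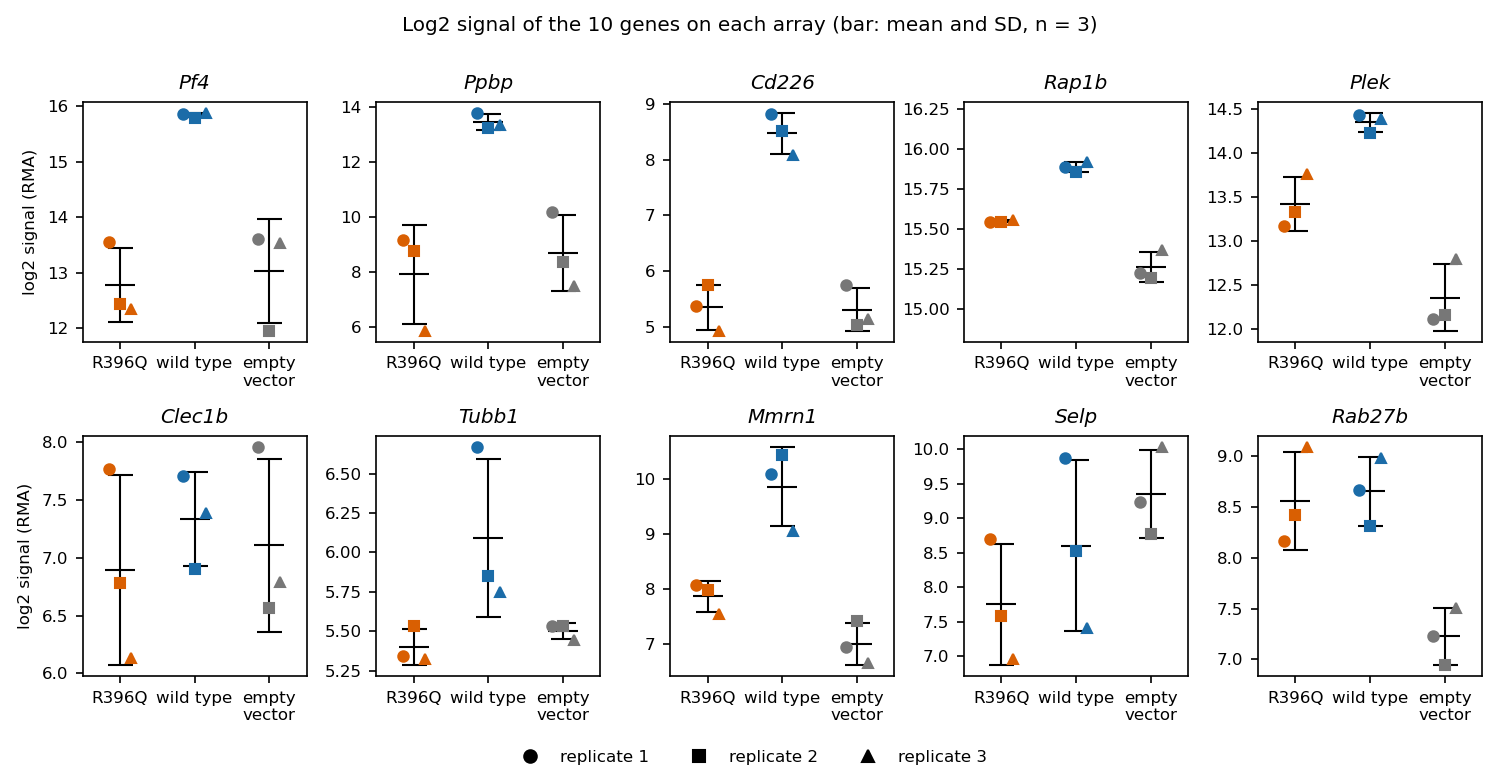
Log2 RMA signal of the 10 genes on each of the 9 arrays, with the mean and SD of each group of 3 and marker shapes for the replicate number; each panel has its own axis. For Pf4, Ppbp, Cd226, Rap1b, Plek, Tubb1 and Mmrn1 the 3 wild type arrays lie above all arrays of both other groups, while for Rab27b the R396Q and wild type arrays overlap above empty vector.

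Pf4, platelet factor 4, is a chemokine stored in alpha granules and a classic marker of megakaryocytes. Its log2 signal was 13.55, 12.44 and 12.34 in R396Q cells, 15.86, 15.79 and 15.87 in wild type cells and 13.61, 11.95 and 13.54 in empty vector cells. The wild type arrays were all high and close together, and those of the other groups overlapped. Pf4 was 8.35-fold lower in R396Q than in wild type cells (log2 change -3.06, 95% interval -4.26 to -1.86, limma adjusted p = 0.0168). It was 7.00-fold higher in wild type than in empty vector cells (log2 change 2.81 with a standard error of 0.51, adjusted p = 0.0175). R396Q and empty vector differed by -0.25, with an interval of -1.45 to 0.94. Both calls missed the threshold when any 1 wild type array was left out, with adjusted p up to 0.0587 against empty vector. The call between R396Q and wild type was also lost without R396Q replicate 2 or replicate 3, with adjusted p up to 0.0682.

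Ppbp, pro-platelet basic protein, is the precursor of the neutrophil-attracting chemokine NAP-2 and is stored in alpha granules as well. Its log2 signals were 9.14, 8.74 and 5.85 in R396Q cells, 13.79, 13.21 and 13.35 in wild type cells and 10.18, 8.37 and 7.47 in empty vector cells. It had the largest differences of the 10 genes in both comparisons with wild type, and the widest spread within the R396Q and empty vector groups, with an SD of 1.80 and 1.38. The gene was 46.6-fold lower in R396Q than in wild type cells (log2 change -5.54, interval -7.91 to -3.18, limma adjusted p = 0.0235). In wild type cells it was 27.4-fold higher than in empty vector cells (log2 change 4.78, interval 2.41 to 7.14, adjusted p = 0.0299). The interval between R396Q and empty vector, -3.13 to 1.60, was wide. The call between R396Q and wild type was lost without any 1 wild type array or R396Q replicate 2, with adjusted p up to 0.0804. The call between wild type and empty vector was lost without any 1 wild type array, empty vector replicate 2 or 3, or R396Q replicate 2, with adjusted p up to 0.0958.

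Pf4 and Ppbp stand in a row of chemokine genes on chromosome 5, and their neighbours in the RefSeq order did not all move with them. Cxcl5, the gene next to Ppbp, encodes another neutrophil attractant. It had mean log2 signals of 5.72 in R396Q, 6.62 in wild type and 5.78 in empty vector cells. It rose by 0.84 with wild type GATA2 against empty vector (limma adjusted p = 0.0259) and was lower by -0.90 with R396Q than with wild type (adjusted p = 0.0267). The first call was lost in 5 of the 9 fits that left out an array, to an adjusted p of 0.0849, and the second in 6 of 9, to 0.099. Cxcl3, on the other side of Pf4, differed by 0.15 between wild type and empty vector (adjusted p = 0.0592), which passed with the replicate block (adjusted p = 0.0336). Cxcl15, Cxcl1 and Cxcl2, next in the row, differed by 0.06, 0.01 and 0.06, and none passed the test. Rassf6 and Mthfd2l, at the ends of the row, differed by -0.01 and -0.37 and did not pass it either. Cxcl1 was below the lower quartile on all 9 arrays. Cxcl15 and Rassf6 had group means of 4.43 to 4.49 and 4.06 to 4.07, where array lower quartiles were 4.54 to 4.60. At such low signals, a gene that is not expressed and one that did not respond cannot be told apart.

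Mmrn1, multimerin 1, is a large alpha granule protein that binds coagulation factor V. The log2 signals were 8.07, 7.98 and 7.54 in R396Q cells, 10.09, 10.45 and 9.05 in wild type cells and 6.94, 7.40 and 6.64 in empty vector cells. The 3 groups did not overlap, with R396Q in between. The gene was 4.0-fold lower in R396Q than in wild type cells (log2 change -2.0, interval -2.91 to -1.10, limma adjusted p = 0.0288) and 7.32-fold higher in wild type than in empty vector cells (log2 change 2.87, adjusted p = 0.00572). R396Q exceeded empty vector by 0.87, with an interval of -0.04 to 1.77 (adjusted p = 0.436). The rise with wild type GATA2 was called in 9 of 9 fits that left out an array. The difference between R396Q and wild type was lost in 6 of them, those without empty vector replicate 1, wild type replicate 1 or 2, or any 1 R396Q array, with adjusted p up to 0.0965. Its relative Mmrn2, known from endothelial cells, differed by 0.02 between wild type and empty vector, at low group means of 4.48 to 4.51.

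Selp encodes P-selectin, the adhesion receptor that sits in the alpha granule membrane until the platelet is activated. On the log2 scale its signal was 8.70, 7.59 and 6.96 in R396Q cells, 9.87, 8.52 and 7.40 in wild type cells and 9.23, 8.77 and 10.03 in empty vector cells. The R396Q arrays were all below the empty vector arrays, while the wild type arrays overlapped both groups. Selp differed by -1.60 between R396Q and empty vector (interval -3.30 to 0.11, limma adjusted p = 0.446) and by -0.75 between wild type and empty vector (interval -2.45 to 0.96, adjusted p = 0.61). It was the only one of the 10 whose mean was lower in wild type than in empty vector cells. The difference between R396Q and empty vector was lower than that of all but 0.489% of clusters, but its interval reached 0. Sele and Selplg, a sister selectin and the selectins' ligand, differed by -0.01 and -0.31 between wild type and empty vector. The fall of Selplg was called with the replicate block (limma adjusted p = 0.0193), and Sele was below the lower quartile on all 9 arrays.

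Rab27b is a small GTPase that brings granules to the membrane for release. It had log2 signals of 8.16, 8.43 and 9.09 in R396Q cells, 8.67, 8.31 and 8.99 in wild type cells and 7.23, 6.94 and 7.51 in empty vector cells. Here the R396Q and wild type arrays overlapped and all 6 lay above the empty vector arrays. The change was 1.43 for wild type against empty vector (2.70-fold, interval 0.75 to 2.11, limma adjusted p = 0.0257). For R396Q against empty vector it was 1.34 (2.52-fold, interval 0.66 to 2.01), which missed the threshold at an adjusted p of 0.095 and was called with the replicate block (adjusted p = 0.0224). R396Q and wild type differed by -0.10, with an interval of -0.77 to 0.58. The wild type call was lost without empty vector replicate 1 or 2, wild type replicate 1 or 3, or R396Q replicate 2, with adjusted p up to 0.0793. Rab27a, its close relative, differed by -0.33 between wild type and empty vector (adjusted p = 0.0991), and by -0.14 between R396Q and empty vector. With the replicate block the fall of Rab27a under wild type GATA2 was called (adjusted p = 0.0496).

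Rap1b is the abundant platelet GTPase that switches on integrins. Log2 signals were 15.55, 15.55 and 15.56 in R396Q cells, 15.89, 15.86 and 15.92 in wild type cells and 15.23, 15.20 and 15.37 in empty vector cells. The changes were the smallest among the called genes, but the groups did not overlap and the SD within them was 0.01 to 0.09. Rap1b was 1.26-fold lower in R396Q than in wild type cells (log2 change -0.34, limma adjusted p = 0.0088) and 1.54-fold higher in wild type than in empty vector cells (log2 change 0.62, adjusted p = 0.00064). Both calls held in 9 of 9 fits that left out an array. The rise of 0.29 with R396Q over empty vector (1.22-fold, adjusted p = 0.0455) held in 1 of those 9, the one without empty vector replicate 3. Without any other single array its adjusted p missed the threshold, at up to 0.163. With quantile normalization it was 0.05, with an adjusted p of 0.817.

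Rap1a, the sister GTPase, had mean log2 signals of 12.85 in R396Q, 13.32 in wild type and 12.53 in empty vector cells. It was 1.73-fold higher in wild type than in empty vector cells (limma adjusted p = 0.00842), a call kept in 9 of 9 fits that left out an array. R396Q and wild type differed by -0.47, which missed the threshold (adjusted p = 0.073) and was called with the replicate block (adjusted p = 0.0266).

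Plek encodes pleckstrin, the main protein kinase C substrate of platelets. Its log2 signals were 13.17, 13.32 and 13.76 in R396Q cells, 14.44, 14.23 and 14.40 in wild type cells and 12.11, 12.16 and 12.79 in empty vector cells. The 3 groups did not overlap, and R396Q lay in between. Plek was 4.0-fold higher in wild type than in empty vector cells (log2 change 2.0, interval 1.48 to 2.52, limma adjusted p = 0.0028), in 9 of 9 fits that left out an array. R396Q exceeded empty vector by 1.06 (interval 0.54 to 1.59, adjusted p = 0.0886) and was below wild type by -0.93 (interval -1.46 to -0.41, adjusted p = 0.0607). Neither passed the test over all arrays. Both passed with the replicate block, at adjusted p of 0.0353 and 0.0196, and without empty vector replicate 3, at 0.0468 and 0.0314. In all, 3 of 19 alternative settings called the first difference (the other leaving out the dimmest 50% of clusters) and 7 of 19 the second (the others being array weights, quantile normalization and 3 filters on dim or tied clusters). Plek2, the relative found outside platelets, was 3.11-fold higher in wild type than in empty vector cells (adjusted p = 0.018), a call lost without empty vector replicate 1 or 2, to an adjusted p of 0.0633.

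Clec1b encodes CLEC-2, the platelet receptor for podoplanin, which signals through the kinase Syk. The arrays read 7.77, 6.78 and 6.13 (log2 signal) in R396Q cells, 7.71, 6.91 and 7.39 in wild type cells and 7.96, 6.57 and 6.80 in empty vector cells. All 3 groups overlapped, and replicate 1 was the highest array of each. The changes were -0.22 for R396Q against empty vector (interval -1.44 to 1.01), 0.23 for wild type against empty vector (interval -1.0 to 1.45), and -0.44 for R396Q against wild type (interval -1.67 to 0.79). These intervals still include changes of more than 1 on the log2 scale. Pdpn, which encodes its ligand podoplanin, differed by 0.17 between wild type and empty vector. Clec7a, a relative that serves as a receptor for fungal glucans on myeloid cells, was 12.3-fold lower in wild type than in empty vector cells (limma adjusted p = 0.0338). That call was lost in 8 of 9 fits that left out an array, to an adjusted p of 0.1. With R396Q, Clec7a was 10.7-fold lower than with empty vector, without overlap, which missed the threshold (limma adjusted p = 0.115). For Clec7a, R396Q and wild type differed by 0.20.

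Cd226 encodes DNAM-1, an adhesion and signaling receptor of platelets, megakaryocytes, natural killer cells and T cells. It had log2 signals of 5.37, 5.74 and 4.92 in R396Q cells, 8.83, 8.51 and 8.08 in wild type cells and 5.74, 5.03 and 5.14 in empty vector cells. The wild type arrays stood apart, and the other groups overlapped. Cd226 was 8.75-fold lower in R396Q than in wild type cells (log2 change -3.13, limma adjusted p = 0.00223) and 8.98-fold higher in wild type than in empty vector cells (log2 change 3.17, interval 2.47 to 3.87, adjusted p = 0.00151). Both calls held in 9 of 9 fits that left out an array. R396Q and empty vector differed by 0.04, with an interval of -0.66 to 0.74. Of 12 measured markers of natural killer and T cells, limma called 0 higher (1 at an unadjusted p under 0.05, where 10.4% of all clusters were) and 1 lower, Prf1, with wild type GATA2 than with empty vector. The log2 of their summed signal was 10.3 to 12.7 in R396Q, 9.65 to 14.5 in wild type and 9.52 to 12.4 in empty vector cells. The granzyme gene Gzmb read 9.54 to 12.6 in R396Q, 8.73 to 14.5 in wild type and 8.37 to 12.3 in empty vector cells (adjusted p = 0.568), while Cd3e and Prf1 were below the lower quartile on all 9 arrays. The part of these cells in the Cd226 result was not tested. Cd96 and Tigit, receptors that share ligands with Cd226, differed by -0.12 and 0.33 between wild type and empty vector and were not called. Tigit signals were low, with group means of 4.41 to 4.75.

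Tubb1 encodes the beta-tubulin of the platelet's marginal band of microtubules. It had log2 signals of 5.34, 5.53 and 5.33 in R396Q cells, 6.67, 5.85 and 5.75 in wild type cells and 5.53, 5.53 and 5.45 in empty vector cells. All 3 wild type arrays were above the other 6, with replicate 1 well above its fellows. The change was -0.69 for R396Q against wild type (interval -1.23 to -0.15, limma adjusted p = 0.162) and 0.59 for wild type against empty vector (interval 0.05 to 1.13, adjusted p = 0.187). Without wild type replicate 1, the difference between R396Q and wild type was smaller, -0.40, but passed the test (adjusted p = 0.0473). Tubb5 and Tubb6, beta-tubulins of many cell types, differed by -0.21 and -1.07 between wild type and empty vector. Neither was called over all arrays (limma adjusted p = 0.422 and 0.124), and both were with the replicate block (adjusted p = 0.0267 and 0.0356).

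**Figure D2:**
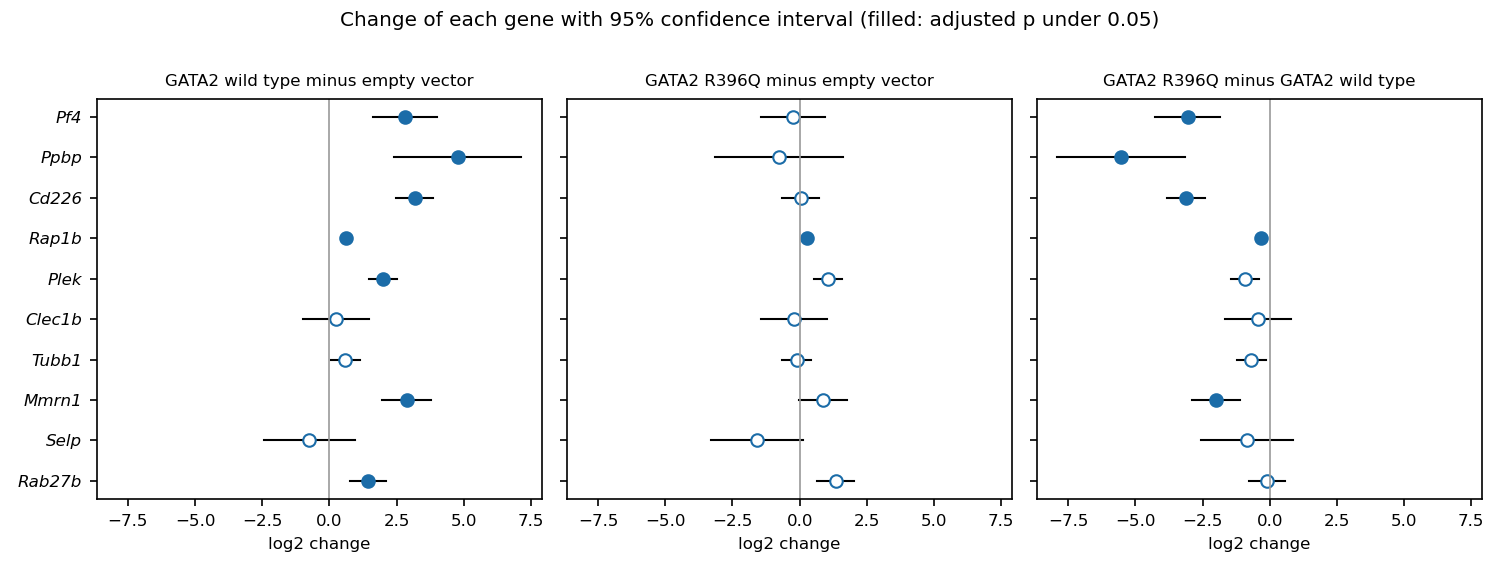
Log2 change of each gene in the 3 comparisons with its 95% confidence interval from limma; filled points passed an adjusted p of 0.05. Against empty vector, wild type GATA2 gave filled points for 7 genes and R396Q for Rap1b alone, and against wild type, R396Q had 5 filled points, all to the left of 0.

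Among the 10 genes the response to R396Q was uneven. The R396Q mean lay between the wild type and empty vector means for 5 genes (Cd226, Rap1b, Plek, Mmrn1 and Rab27b) and below both for the other 5. The R396Q arrays overlapped the wild type arrays for Rab27b, stood apart from both groups for Rap1b, Plek and Mmrn1, and overlapped the empty vector arrays for Pf4, Ppbp and Cd226. The median change of the 10 genes was -0.03 for R396Q against empty vector, 1.71 for wild type against empty vector and -0.89 for R396Q against wild type. The medians over all clusters were -0.01, -0.01 and 0.00. Within replicate numbers the wild type median was 1.54 to 1.85. Ranked by change with wild type GATA2, Ppbp exceeded 99.9% of clusters, Cd226 99.7%, Mmrn1 99.6%, Pf4 99.5%, Plek 99% and Rab27b 98.3%. Rap1b exceeded 94.4% and Clec1b 84.6%, while Selp exceeded 4.25%.

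Groups that do not overlap give a count that needs no model. All 3 wild type arrays lay above all 3 empty vector arrays for 8 of the 10 genes, the 7 called ones and Tubb1, against 10.8% of all clusters, and 0 genes lay wholly below, against 11.8%. For R396Q and empty vector this held for 4 genes (Rap1b, Plek, Mmrn1 and Rab27b), against 6.98% of clusters, and Selp was lower without overlap, as were 7.1% of clusters. The R396Q arrays lay below the wild type arrays for 7 genes, against 9.59% of clusters, and above them for 0, against 11%.

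The counts of calls moved with the fit. With the replicate number as a block, 3 of the 10 genes were called higher with R396Q than with empty vector (Rap1b, Plek and Rab27b), where 1.66% of all clusters were, and 6 were called lower with R396Q than with wild type (Plek besides the 5), where 5.95% were. Over all clusters the block fit also called 1.34% lower with R396Q than with empty vector and 7.1% higher with R396Q than with wild type. In fits that left out an array, the count against empty vector was 4 to 7 for wild type and 0 to 2 for R396Q, and the count of genes lower with R396Q than with wild type was 2 to 6.

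**Figure D3:**
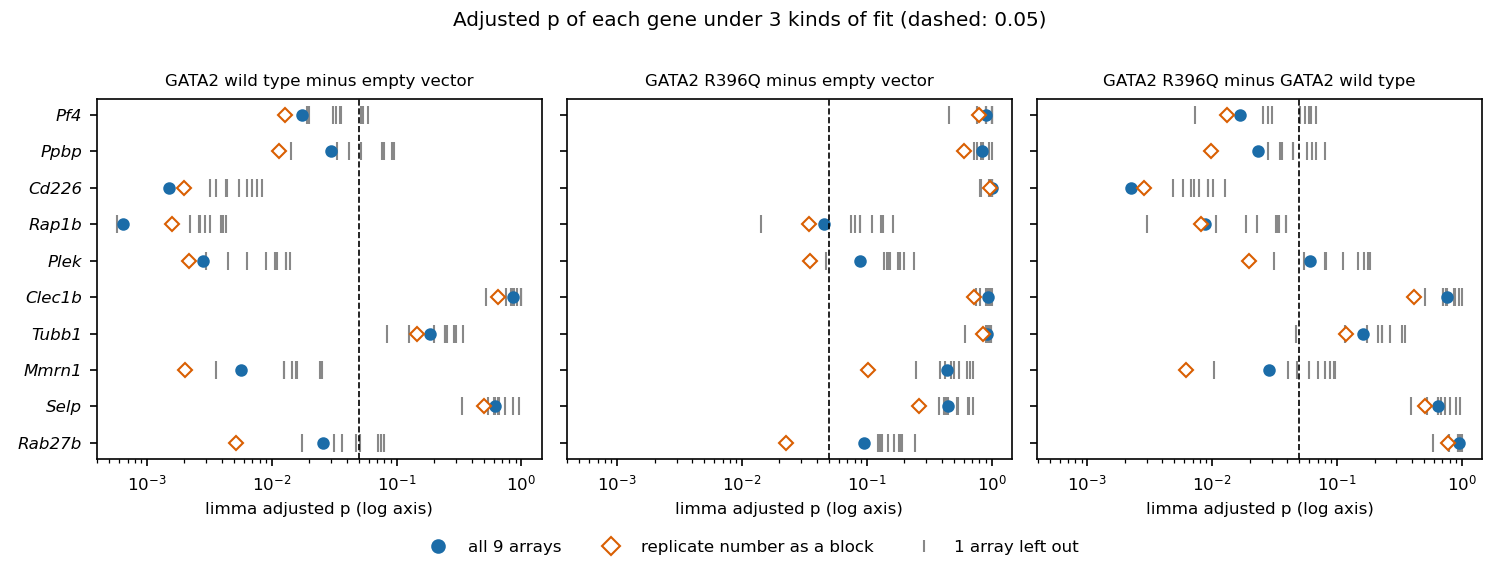
Limma adjusted p of each gene in the 3 comparisons (log axis; dashed line at 0.05) with all 9 arrays, with the replicate number as a block, and with each array left out. All marks of Cd226, Rap1b, Plek and Mmrn1 in the comparison of wild type with empty vector lie left of the line, those of Pf4, Ppbp and Rab27b fall on both sides, and for R396Q against empty vector the block brings Plek and Rab27b across it.

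Other genes of the platelet were read from lists. Of 16 measured genes of alpha granule cargo, 5 rose and 1 fell with wild type GATA2 against empty vector, with a median change of 0.60. Vwf, von Willebrand factor, had mean log2 signals of 5.99 in R396Q, 9.73 in wild type and 6.14 in empty vector cells. It was 13.4-fold lower in R396Q than in wild type cells (limma adjusted p = 0.000155) and 12-fold higher in wild type than in empty vector cells (adjusted p = 0.000151). Tgfb1 and Pdgfb, growth factors that platelets carry, rose by 0.64 and 0.57 with wild type GATA2. F13a1, the clotting factor that monocytes also make, fell by 3.33 with wild type GATA2 (adjusted p = 0.00881). R396Q gave 1 higher call against empty vector, Tgfb1, and 1 lower, F13a1, and both were lost when single arrays were left out, Tgfb1 without R396Q replicate 1 or 3 and F13a1 in 8 of 9 fits. Against wild type, 4 of the 16 were lower with R396Q.

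Genes that build and release granules were mixed: of 25 measured, 5 rose and 2 fell with wild type GATA2, with a median of 0.00, and 7 rose and 6 fell with the replicate block, which called 8% of all clusters higher and 9.41% lower. Slc18a2, the transporter that fills dense granules with serotonin, rose 9.90-fold with wild type GATA2 (limma adjusted p = 0.000534) and was 3.88-fold lower in R396Q than in wild type cells (adjusted p = 0.00505). Snap23, a membrane fusion protein, rose 2.64-fold with wild type GATA2 and was 2.14-fold lower in R396Q than in wild type cells. Dtnbp1, a subunit of a dense granule assembly complex, went the other way and was 1.90-fold higher in R396Q than in wild type cells (adjusted p = 0.00465). These 5 calls held in 9 of 9 fits that left out an array. The count of 7 was 3 without empty vector replicate 1, 2 without empty vector replicate 3 and 4 without wild type replicate 3. R396Q gave 0 limma calls in this list against empty vector, 4 with the replicate block, and 6 higher and 3 lower at an unadjusted p under 0.05, where 5.98% of all clusters were higher and 6.07% lower. Other settings than the block gave at most 2 calls. Against wild type it gave 2 higher and 3 lower calls (2.67% and 3.08% of all clusters). With the block it gave 2 higher and 6 lower (7.1% and 5.95% of all clusters).

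Surface glycoproteins had the largest median of the 7 lists in the comparison of wild type with empty vector. Of 13 measured, 9 rose and 0 fell with wild type GATA2, with a median change of 2.10. With R396Q, limma called 0 against empty vector, 1 with the replicate block or without empty vector replicate 2 or 3, and 3 higher at an unadjusted p under 0.05 (5.98% of all clusters). Against wild type, 7 were lower with R396Q. Gp5, a subunit of the von Willebrand factor receptor, had mean log2 signals of 5.71 in R396Q, 10.37 in wild type and 6.35 in empty vector cells, 25.1-fold lower in R396Q than in wild type cells (limma adjusted p = 0.00257). Itga2, part of the collagen receptor, was 19.6-fold higher in wild type than in empty vector cells. Itga2b, the fibrinogen receptor subunit that Rap1b helps to switch on, had means of 10.38 in R396Q, 11.90 in wild type and 9.15 in empty vector cells, so R396Q lay in between. Its difference between R396Q and empty vector, 1.23, missed the threshold (adjusted p = 0.0606) and passed with the block (adjusted p = 0.0358).

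Of 34 measured signaling genes, 14 rose and 3 fell with wild type GATA2 against empty vector, with a median of 0.56. P2rx1, the ATP-gated channel of platelets, had log2 signals of 11, 11.28 and 10.48 in R396Q cells, 11.54, 10.96 and 10.65 in wild type cells and 7.84, 7.49 and 8.00 in empty vector cells. Like Rab27b, its R396Q and wild type arrays overlapped above empty vector. It was 8.85-fold higher with R396Q (limma adjusted p = 0.00654) and 9.69-fold higher with wild type GATA2 (adjusted p = 0.00124) than with empty vector, and R396Q and wild type differed by -0.13 (interval -0.82 to 0.55). Ptger3, a prostaglandin E2 receptor, was 3.46-fold higher with R396Q and 3.99-fold higher with wild type GATA2 than with empty vector. The limma adjusted p was 0.0134 and 0.00198, and the R396Q call was lost without R396Q replicate 2 (adjusted p = 0.0616). P2ry1, an ADP receptor, and Gucy1b1, a subunit of the nitric oxide receptor, rose 6.42-fold and 6.32-fold with wild type GATA2 and were 6.05-fold and 5.76-fold lower in R396Q than in wild type cells. Orai1, the store-operated calcium channel, was 1.87-fold higher in R396Q than in wild type cells (adjusted p = 0.0046). Its means were 11.32 in R396Q, 10.42 in wild type and 11.08 in empty vector cells. R396Q gave 2 higher and 0 lower calls against empty vector, or 3 and 1 with the block. Against wild type it gave 1 higher and 8 lower calls (2.67% and 3.08% of all clusters). With the block these were 4 and 13 (7.1% and 5.95% of all clusters). The total of 9 with no block was 4 without wild type replicate 1 and 5 without wild type replicate 3 or R396Q replicate 1.

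Of 14 measured cytoskeletal genes, 7 rose and 0 fell with wild type GATA2, and 4 rose without empty vector replicate 1. Parvb, an integrin-linked adaptor, and Sh3bgrl2, a small thioredoxin-fold protein, were 15.8-fold and 14.6-fold lower in R396Q than in wild type cells (limma adjusted p = 0.00268 and 0.00163). With R396Q 2 genes, Tuba8 and Diaph1, were called higher than with empty vector, 2.38-fold and 1.52-fold. Both were also called higher with wild type GATA2, 2.09-fold and 2.00-fold (limma adjusted p = 0.00657 and 0.00165). The R396Q call of Diaph1 was lost in 8 of 9 fits that left out an array. That of Tuba8 was lost without any 1 R396Q array. Of the 4 genes lower with R396Q than with wild type, 2 were called without empty vector replicate 1, wild type replicate 2 or any 1 R396Q array.

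The list of megakaryocyte transcription factors held Gata2 itself. As the transduced gene, Gata2 counts among the higher calls of both forms against empty vector. Of the list's 15 genes, 8 rose and 1 fell with wild type GATA2. Gfi1b, a repressor needed for platelet production, had mean log2 signals of 10.45 in R396Q, 13.57 in wild type and 9.31 in empty vector cells, 8.69-fold lower in R396Q than in wild type cells (limma adjusted p = 0.00214). Zfpm1, the GATA partner FOG-1, was 4.92-fold lower in R396Q than in wild type cells. Fli1, an ETS factor of megakaryocytes, was 1.47-fold higher with R396Q and 1.81-fold higher with wild type GATA2 than with empty vector (adjusted p = 0.008 and 0.00039), and lower by -0.31 with R396Q than with wild type (adjusted p = 0.0223). With quantile normalization its rise with R396Q was lost. Ikzf2, a zinc finger factor, was 3.57-fold higher with R396Q than with empty vector (adjusted p = 0.00648). Its mean log2 signals were 10.2 in R396Q, 9.8 in wild type and 8.3 in empty vector cells. The arrays of both GATA2 forms all lay above the empty vector arrays. Erg, an ETS factor of stem cells, was 4.62-fold higher in R396Q than in wild type cells and fell by 1.62 with wild type GATA2 against empty vector (adjusted p = 0.000679 and 0.00139). R396Q gave 4 calls against empty vector, all higher, but 2 in each of 7 fits that left out an array, those without any 1 empty vector or R396Q array or wild type replicate 2. Its 8 calls against wild type were 2 higher and 6 lower, and were 4 without wild type replicate 1 or R396Q replicate 1 or 2 and 5 without empty vector replicate 2, wild type replicate 3 or R396Q replicate 3.

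Close relatives and partners of the 10 genes formed the last list. Of 30 measured, 3 rose (Rap1a, Plek2 and Cxcl5) and 1 fell (Clec7a) with wild type GATA2 against empty vector by limma, with a median of 0.09. The block fit gave 7 and 7 (8% and 9.41% of all clusters), and the total of 4 was 1 without empty vector replicate 1 and 2 without wild type replicate 2. R396Q gave 0 calls against empty vector in either limma fit, and 3 higher and 1 lower at an unadjusted p under 0.05 (5.98% and 6.07% of all clusters). Against wild type, Plek2 and Cxcl5 were lower with R396Q. There the block fit gave 3 higher and 4 lower (7.1% and 5.95% of all clusters). With no block, 1 call or 0 was left without empty vector replicate 1 or 3, wild type replicate 2 or any 1 R396Q array.

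**Figure D4:**
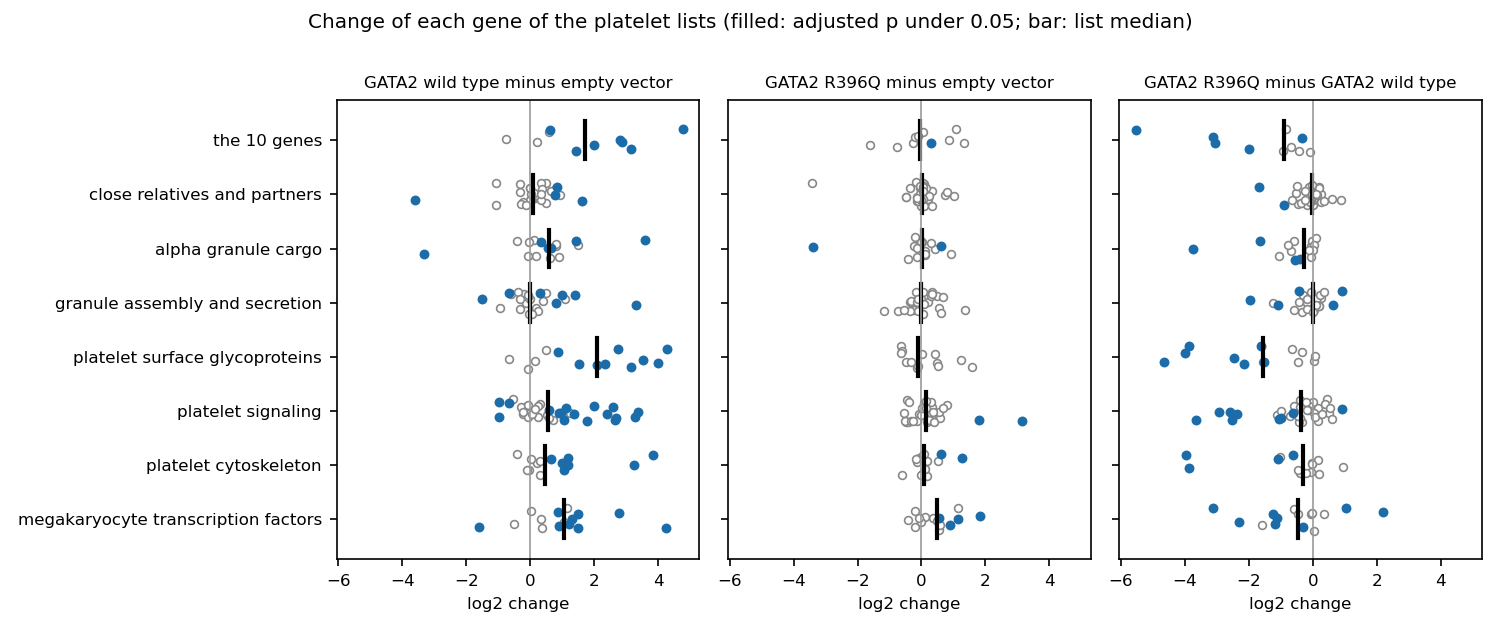
Log2 change of every measured gene of each list in the 3 comparisons; filled points passed a limma adjusted p of 0.05 and the bar is the list median. Surface glycoproteins had the highest median in the comparison of wild type with empty vector (2.10), followed by the 10 genes (1.71), and granule assembly genes and close relatives centred near 0.

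Markers of other cells moved in the same samples. The log2 of the summed signal of 11 erythroid markers was 10.7 to 11.7 in R396Q, 13.8 to 14.7 in wild type and 10.9 to 11.7 in empty vector cells, and 8 of the 11 rose with wild type GATA2. For 12 mast cell and basophil markers it was 17.6 to 17.8 in R396Q, 18.0 to 18.8 in wild type and 15.7 to 16.9 in empty vector cells, and 7 rose with wild type GATA2. For 12 neutrophil markers it was 16.9 to 18.7 in R396Q, 13.7 to 16.1 in wild type and 18.0 to 19.1 in empty vector cells, and 5 fell with wild type GATA2. For 11 monocyte and macrophage markers it was 14.6 to 16.2 in R396Q, 11.2 to 15.3 in wild type and 16.3 to 17.5 in empty vector cells, and 5 fell with wild type GATA2. None of these markers was below the lower quartile on all 9 arrays. For 9 megakaryocyte markers it was 12.3 to 13 in R396Q, 13.8 to 14.7 in wild type and 11.3 to 12 in empty vector cells. Several of the 9 stand in the lists above, and 7 rose with wild type GATA2. Such sums follow the brightest genes, here Itgb3 with means of 11.84 in R396Q, 13.41 in wild type and 10.27 in empty vector cells. With R396Q against empty vector, the 9 had a median change of -0.15 and 0 limma calls. The 12 mast cell and basophil markers had 0.75 and 0 calls. With the replicate block limma called 1 in each list. At an unadjusted p under 0.05, 3 and 4 were higher, where 5.98% of all clusters were. The part of these shifts in the results of the 10 genes was not tested. In such mixed samples, fewer cells of a type and less RNA per cell cannot be told apart.

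Endothelial cells, which also make Selp, Mmrn1 and Vwf, had 12 measured markers with a sum of 11.9 to 12.1 in R396Q, 11.1 to 11.3 in wild type and 10.8 to 11.1 in empty vector cells. With wild type GATA2 2 of them rose, Tek and Eng, by 1.65 and 1.10 (limma adjusted p = 0.0252 and 0.0136), and Flt1 fell by 1.21 (adjusted p = 0.0297). With R396Q Pecam1, which platelets carry as well, rose by 1.39 over empty vector (limma adjusted p = 0.0188). Pecam1 was the brightest of the 12, so the sum follows it most. Its means were 11.70 in R396Q, 10.22 in wild type and 10.31 in empty vector cells, and those of Eng, the next, 8.39, 9.35 and 8.25. The median change of the 12 with R396Q against empty vector was -0.02. Cdh5 and Ramp2 were below the lower quartile on all 9 arrays, and the other 10 were not. The part of endothelial cells in the results was not tested.

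Of 11 stem cell markers the log2 of the summed signal was 13.3 to 13.5 in R396Q, 11.6 to 12.1 in wild type and 13.7 to 14.1 in empty vector cells. Against empty vector 1 rose and 1 fell with R396Q, and 2 rose and 3 fell with wild type GATA2. Slamf1, which megakaryocytes and mast cells also express, rose by 3.25 with R396Q (limma adjusted p = 0.0188) and by 3.58 with wild type GATA2 (adjusted p = 0.00339). Kit, a receptor used to enrich the marrow cells before infection, was 3.50-fold lower with R396Q and 7.02-fold lower with wild type GATA2. Mllt3 rose by 0.78 with wild type GATA2, and Cd34 and Flt3 fell by 4.63 and 2.29. Hoxb5 was below the lower quartile on all 9 arrays.

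The genes whose pattern over the 9 arrays was most like that of Pf4, by the root mean square difference of the centred log2 values, were Ehd3 (0.419), Narf (0.449), Emc9 (0.471), Epor (0.478) and Car5b (0.484). Most like the mean pattern of the 10 genes were Sapcd1 (0.158), Clca3a2 (0.177), Pon3 (0.178), Alad (0.225) and Gpc4 (0.228). Low values mean close patterns, and these 9 arrays share 3 groups.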

How the data were processed

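Values are log2 signals that the authors deposited, 1 per cluster and sample. The submitters' processing notes name RMA and Affymetrix Expression Console. Versions and the genome build are not given in the sources used here. RMA (robust multiarray average) corrects background, normalizes between arrays and pools a cluster's probes. Cluster identifiers are of a later type than the Mouse Exon 1.0 ST array that the labels name. The table held 0 columns of other samples. Array medians were 6.06 to 6.19, and correlations between arrays of a group were 0.989 to 0.995. The 3 arrays per group limit the precision.

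Of 21072 clusters, 18992 had 1 symbol, 1390 several and 690 none in the array annotation; 18236 matched a reference gene table, which updated 418 symbols. For 171 symbols with several clusters the brightest was used. Each cluster was fitted with limma 3.58.1 in R 4.3.3 (1 mean per group over 9 arrays, 2-sided, 6 residual and 0.956 prior degrees of freedom) after the fit was tested on simulated data. Clusters were not filtered. Signals are not comparable between genes.

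The 10 genes and all lists were chosen with earlier results of these data known. The text names the 10 genes, Gata2, their relatives, called genes of each list with the smallest p, and the 5 genes nearest in pattern to Pf4 and to the mean of the 10. Listed genes without a cluster of their own were not analysed here. Promoter sequences and gene order came from RefSeq tables (GRCm38.p6).

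Replicate numbers were tested for pairing with the arrays' deviations from group means: r was 0.451 to 0.693 in 9 same-number pairs of arrays, against -0.537 to -0.09 in 18 other pairs from different groups. Such deviations cancel out within a group, so positive values in same-number pairs force negative ones among the others. On the same-number values, the numbers, taken from the labels, were treated as pairs in a fit with the number as a block. The labels do not say what such arrays share. Other settings were each array left out, only the groups compared, trend and robust options, array weights, median subtraction, quantile normalization, dropping the dimmest 30% or 50% of clusters, dropping those with under 6 distinct values, and the mean of a symbol's clusters.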

Additional observations from a re-analysis of the deposited data

How the results depend on the processing

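With the replicate number as a block, 632 clusters were called for R396Q against empty vector, 3667 for wild type against empty vector and 2750 for R396Q against wild type, where the fit without it called 259, 1894 and 1211. The block changed the calls of Plek (both R396Q comparisons) and Rab27b (R396Q against empty vector) and no other call among the 10 genes. Fits on only the 2 groups compared called 94, 1026 and 772 clusters. Leaving out single arrays gave 85 to 304, 1285 to 1724 and 650 to 1153 clusters. Of the 10 genes it left 0 to 2, 4 to 7 and 2 to 6 called. For R396Q against empty vector, 1 of the 10 was called, and 3 with the block, 2 without the dimmest 50% of clusters, and 0 with only the 2 groups, trend and robust options, median subtraction, quantile normalization, without the dimmest 30% or without clusters of under 6 distinct values. For R396Q against wild type, 3 of the 10 were called with only the 2 groups, against 5. For wild type against empty vector, Pf4 lost its call in 4 of 19 settings, 3 of which left out an array. Ppbp lost it in 7 of 19, 6 of which left out an array. Some small changes that no fit called turned sign when an array was left out, and are given with their range over such fits. For R396Q against empty vector, Pf4 was 0.033 without empty vector replicate 1 (-0.79 to 0.033) and Ppbp 0.26 without R396Q replicate 3 (-1.38 to 0.26). Clec1b was 0.21 without empty vector replicate 1 and 0.17 without R396Q replicate 3 (-0.65 to 0.21). Cd226 was -0.10 without empty vector replicate 2, -0.04 without empty vector replicate 3 and -0.16 without R396Q replicate 2 (-0.16 to 0.25). For R396Q against wild type, Rab27b was 0.07 without wild type replicate 3 and 0.10 without R396Q replicate 1 (-0.36 to 0.10). For wild type against empty vector, Clec1b was -0.043 without empty vector replicate 2 (-0.043 to 0.65). Beyond the smaller number of arrays or clusters in such fits, the cause was not tested. Median subtraction and quantile normalization moved the median of all clusters by at most 0.05.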
